A study of Mus musculus with 55 samples.

Results

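The collagen gene family was read across 30 bulk RNA-seq libraries of mouse bladder tumours. The members were the 44 genes, of 47606 in the count tables, whose symbol is Col, a type number, the letter a and a chain number, such as Col1a1. The tumours came from the murine bladder cancer line BBN963 and grew either in C57BL/6 mice (B6) or in NSG mice, a strain without T cells, B cells or NK cells. The B6 mice received 3000000 cells under the skin. Per the series' design text, randomization took place at 200 mm3, and the drug entinostat, which inhibits class I histone deacetylases, was given in chow at 12 mg/kg. Entinostat tumours of B6 mice were collected at 100 mm3, below the volume at randomization. The labels do not give the volume at which B6 baseline and vehicle tumours were collected, and for NSG mice they give neither cell number, dose nor volume, so treatment and tumour volume cannot be told apart. All groups carry the same cell line, with no engineered allele named. The groups were B6 baseline (4 tumours), B6 vehicle (6), B6 entinostat (5), and NSG baseline, NSG vehicle and NSG entinostat (5 each). The vehicle samples carry that name in their source and treatment labels, while their titles call them not treated. Tumours are named by their labels, as a number in B6 (402) and with the group in NSG (NSG_Non-Treatment_302, a vehicle tumour). A sixth B6 entinostat tumour was not analysed here.

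Collagens are secreted or membrane-bound proteins built as trimers of chains wound into a triple helix. Fibrillar collagens bear the tension of connective tissue and are made mainly by fibroblasts, while type IV collagen forms the sheet of the basement membrane under epithelium and around vessels. Type VI forms beaded filaments, type VII anchors the basement membrane to the tissue below, and type XVII is a transmembrane part of the hemidesmosome, by which basal epithelial cells hold on to that membrane. A chain is made as procollagen, hydroxylated and folded in the endoplasmic reticulum, trimmed outside the cell and cross-linked by lysyl oxidases.

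Values are normalized counts, that is, gene counts divided by a size factor per library. Library sums ran from 21230000 to 37250000 normalized counts. A fold change is on the log2(value + 1) scale with its standard error (SE), and a gene was called at an adjusted p under 0.05 (limma, Benjamini-Hochberg over all genes tested). A gene was tested if it reached 10 in at least 4 B6 or 5 NSG libraries. In bulk RNA, fewer cells of a type and less RNA per cell cannot be told apart. Each library has its own tumour number in the labels, so p-values measure the spread between tumours.

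Some libraries stood apart from the rest of their group, and tissue markers differed between groups. Of the 39 members tested in B6, vehicle tumour 402 held the highest vehicle value for 28 and vehicle tumour 405 the lowest for 25. Baseline tumour 426 was the lowest baseline library for 28. Among 12 basal and squamous epithelial markers, all 12 were called lower with entinostat than with vehicle in B6 mice, and their summed value was 423 to 2245 against 157900 to 952200. In single entinostat tumours up to 2 of these markers were at 0, among Krt6b, Krt16 and Dsc3. The fibroblast markers, 10 of 10 called higher and none of them at 0, summed to 108200 to 198600 in entinostat and 2590 to 43950 in vehicle tumours. The macrophage list (8 of 8 higher) summed to 397100 to 1023000 in entinostat and 5034 to 79130 in vehicle tumours. Skeletal muscle markers (8 of 9 higher) summed to 286 to 475100 in entinostat tumours (median 2523), highest in tumour 413, and 53 to 166 in vehicle tumours. Baseline tumour 415 held 16900. Adipocyte markers (3 of 6 higher) summed to 9891 to 38890 in entinostat and 115 to 10320 in vehicle tumours. Tendon markers (2 of 4 higher) summed to 268 to 514 and 64 to 202. Of 6 Schwann and nerve markers, 2 were called higher. Bone markers (1 higher and 1 lower of 3 tested) had a lower sum with entinostat, at most 538 against at least 746 with vehicle. Over all genes tested in this comparison, 29.9% were called higher and 26.2% lower. No list's count was tested against these shares. In NSG entinostat tumours the epithelial sum was 22600 to 99520, beside 14560 to 228800 in NSG vehicle tumours. The part of these lists in the collagen results was not tested.

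The family as a whole took a larger share of the RNA in B6 entinostat tumours than in any other group. The 44 members held 4.84, 3.97, 5.83, 3.68 and 3.88% of the summed normalized counts in the 5 B6 entinostat tumours, or 4.44% ± 0.894 (SD, n = 5). In B6 vehicle tumours the share was 0.101 to 2.86%, with a median of 0.458%. Tumour 402 held 2.86% and the other 5 vehicle tumours held 0.579% or less. The 4 B6 baseline tumours held 0.988, 0.972, 0.486 and 0.160%. In NSG mice the order was different, with 1.43, 0.773, 1.57, 0.922 and 1.02% at baseline, 0.572, 0.313, 0.420, 0.444 and 0.283% with vehicle, and 0.524, 0.415, 0.788, 0.406 and 0.912% with entinostat. Every NSG baseline share lay above every NSG vehicle share, while vehicle and entinostat overlapped. No test was run on a share summed over members, and shares of the 2 host tables, which were normalized separately, are set side by side only as percentages within a library.

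**Figure D1:**
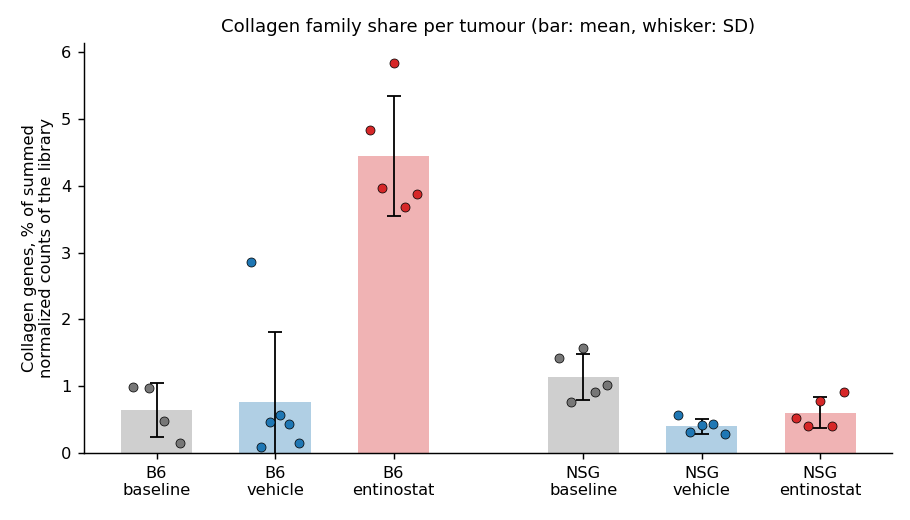
Summed normalized counts of the 44 collagen genes as a percent of the library's total (y axis, from 0), for 6 groups of 4 to 6 tumours; points are tumours, bars are means and whiskers are SDs. The 5 B6 entinostat tumours lie at 3.68 to 5.83%, above vehicle tumour 402 at 2.86% and every other tumour.

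Most of the family was higher in B6 entinostat than in B6 vehicle tumours. Of 44 members, 39 were tested: 27 were called higher, 2 lower and 10 were not called. Among all 17053 genes tested 29.9% were called higher and 26.2% lower. The median log2 fold change was 3.67 over the members tested and -0.01 over all genes tested. The 5 members below the filter (Col2a1, Col4a3, Col9a1, Col10a1 and Col19a1) had B6 values of at most 18.9. Of the 27, Col6a6, Col22a1 and Col25a1 reached the filter only with the entinostat tumours counted, so their difference follows in part from the filter. Leaving out any single library left 25 to 27 members called higher and 2 lower.

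Promoter sequences of 4 members are shown because they stand for both directions: the interstitial genes Col1a2 and Col3a1, which rose, and the epithelial basement membrane genes Col4a5 and Col17a1, the 2 that fell. Each holds 250 bases (201 for Col4a5), runs 5′ to 3′ in the direction of the gene, and ends at the base before the annotated gene (RefSeq, GRCm38.p6). They lie at chr6:4505368-4505617 (plus strand), chr1:45311288-45311537 (plus strand), chrX:141475169-141475369 (plus strand) and chr19:47692043-47692292 (minus strand), upstream of the gene and outside its exons. Capitals mark matches, on either strand, to 3 motifs: CCAAT (the CCAAT box), TATAAA (the TATA box) and GGGCGG (the GC box).
Col1a2: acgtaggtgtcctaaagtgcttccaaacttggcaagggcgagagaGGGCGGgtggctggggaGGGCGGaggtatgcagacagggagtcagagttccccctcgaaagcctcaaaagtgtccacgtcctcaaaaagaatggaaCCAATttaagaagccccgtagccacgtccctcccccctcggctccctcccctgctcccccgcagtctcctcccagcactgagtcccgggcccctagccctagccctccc
Col3a1: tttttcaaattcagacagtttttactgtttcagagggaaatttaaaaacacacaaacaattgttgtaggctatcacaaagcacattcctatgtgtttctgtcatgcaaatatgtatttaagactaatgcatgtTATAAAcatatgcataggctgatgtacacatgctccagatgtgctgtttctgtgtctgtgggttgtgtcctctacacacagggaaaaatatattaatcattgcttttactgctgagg
Col4a5: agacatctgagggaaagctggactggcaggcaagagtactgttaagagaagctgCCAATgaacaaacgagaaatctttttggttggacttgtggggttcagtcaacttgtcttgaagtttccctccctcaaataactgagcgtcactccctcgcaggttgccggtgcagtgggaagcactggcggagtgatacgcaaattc
Col17a1: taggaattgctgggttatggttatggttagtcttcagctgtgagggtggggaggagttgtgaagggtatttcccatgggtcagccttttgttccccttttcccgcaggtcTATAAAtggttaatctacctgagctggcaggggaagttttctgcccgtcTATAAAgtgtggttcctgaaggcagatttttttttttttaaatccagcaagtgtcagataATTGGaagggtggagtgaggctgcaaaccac
The Col1a2 stretch held 2 GC boxes and 1 CCAAT box at 62% G and C, while Col3a1 held 1 TATA box at 35.2% and no CG dinucleotide. Col4a5 held 1 CCAAT box and Col17a1 held 2 TATA boxes and 1 CCAAT box. The 35 members with an entry had 38 windows of at most 250 bases before a start site. The GC box was present in 22 of these windows (57.9%) and in 32.7% of all 32851 windows. The median share of G and C was 59% in the members' windows and 52.4% in all windows, and the part of base composition in the GC box count was not tested. The CCAAT box was present in 13 windows (34.2%) against 33.9% of all, and the TATA box in 5 (13.2%) against 12.4%. These matches describe letters and are not shown to be bound. The members with no entry were Col1a1, Col2a1, Col4a3, Col5a2, Col9a3, Col12a1, Col14a1, Col22a1 and Col26a1.

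The fibrillar collagens rose together in B6 entinostat tumours. All 10 tested of 11 were called higher, beside 29.9% of all genes. Their log2 fold changes had a median of 4.73 and a range of 2.34 to 5.79. Col2a1, the cartilage fibril chain, was the member not tested. Col1a1 (chromosome 11, 94936224 to 94953042), which codes for the major chain of type I collagen in bone, skin and scar, stood at 232300, 203400, 296200, 252400 and 198300 in the 5 entinostat tumours. In vehicle tumours it ran from 504 to 106400 (median 9555), and in baseline tumours it was 40110, 35170, 17320 and 2598. Every entinostat tumour lay above every vehicle tumour, and the nearest was vehicle tumour 402 at 106400, with the other vehicle tumours at 14970 or less. The rise was 27.7-fold (log2 fold change 4.79, SE 1.01, adjusted p = 0.000971), and without tumour 402 the log2 fold change was 5.52.

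Col1a2, the partner chain of type I, was 294600, 289100, 366300, 322400 and 282400 in entinostat and 621 to 134200 (median 11080) in vehicle tumours (log2 fold change 4.90, SE 1.03, adjusted p = 0.000952). Baseline tumours held 46250, 49170, 20650 and 2776. Again no entinostat value overlapped a vehicle or baseline value. Col3a1, the type III chain of elastic and repairing tissue, showed the largest change of its class, at 586000, 392100, 580900, 325900 and 352300 in entinostat against 373 to 181100 (median 8712) in vehicle tumours (log2 fold change 5.79, SE 1.30, adjusted p = 0.00161). Its baseline values were 34870, 50670, 12130 and 1670. The lowest entinostat tumour, 421, was at 325900 and vehicle tumour 402 at 181100, so the groups did not overlap. Without tumour 402 the log2 fold change of Col3a1 was 6.69.

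Col5a1 and Col5a2 code for type V chains, which start type I fibrils and limit their width. Col5a1 was 46480, 36690, 45030, 29740 and 35180 in entinostat, 156 to 13490 (median 1850) in vehicle and 6518, 4903, 2625 and 260 in baseline tumours (log2 fold change 4.67, SE 0.95, adjusted p = 0.000761). Col5a2 was 63160, 61900, 82840, 49170 and 47160 in entinostat, 207 to 23030 (median 2418) in vehicle and 7138, 7738, 3538 and 551 in baseline tumours (log2 fold change 4.81, SE 0.94, adjusted p = 0.000573). Neither chain overlapped between entinostat and the other groups. Col5a2 lies 24624 bases from Col3a1 on chromosome 1. The remaining fibrillar members were Col5a3 (4.32), Col11a1 (4.44), Col11a2 (2.34), Col24a1 (5.11) and Col27a1 (4.06), all called higher on the log2 fold change scale. Col11a1 is also a cartilage chain, and the cartilage markers (2 of 4 tested called higher, 1 lower) summed to 211 to 661 in entinostat and 313 to 1215 in vehicle tumours.

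All 6 beaded-filament chains of type VI were called higher, beside 29.9% of all genes, Col6a6 with the limit of the filter given above. Their log2 fold changes had a median of 4.99 and a range of 4.05 to 5.67. The core chains Col6a1, Col6a2 and Col6a3 assemble into 1 filament that links cells to the interstitial matrix. Col6a1 was 39370, 28660, 31890, 33400 and 29000 in entinostat, 101 to 13100 (median 1094) in vehicle and 6388, 6506, 2220 and 413 in baseline tumours (log2 fold change 4.92, SE 0.97, adjusted p = 0.000588). Col6a2 was 31890, 21020, 22600, 29920 and 21150, 80.8 to 10710 (median 913) and 5738, 5490, 1887 and 313 in the same order (log2 fold change 4.89, SE 1.01, adjusted p = 0.000843). Col6a3 was 47240, 42240, 43200, 34550 and 38470, 134 to 11120 (median 1581) and 8929, 7254, 2297 and 593 (log2 fold change 5.05, SE 0.92, adjusted p = 0.000326). For these chains the lowest entinostat tumour lay above tumour 402, the highest vehicle tumour.

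The alternative chains Col6a4, Col6a5 and Col6a6 lie side by side on chromosome 9, with gaps of 27854 and 27823 bases. Col6a6 went from 0 to 20 (median 1.67) in vehicle and 2.81, 14.9, 0 and 0.915 in baseline to 188, 164, 293, 167 and 102 in entinostat tumours (log2 fold change 5.67, SE 0.86, adjusted p = 6.79e-05). It reached 10 in 5 entinostat, 2 vehicle and 1 baseline tumours, so it was tested only because of the group where it is high. Its vehicle values were near the size of a few counts, so this fold depends on the pseudocount. Col6a5 (5.34) and Col6a4 (4.05) were called higher as well.

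The fibril-associated collagens, which decorate fibril surfaces, split into risers and genes near the filter. Of 9 members 7 were tested and 4 were called higher, beside 29.9% of all genes: Col12a1, Col14a1, Col16a1 and Col22a1. Col14a1, a regulator of fibril growth, showed the largest change, at 14000, 10040, 12170, 19070 and 7770 in entinostat, 9.68 to 8610 (median 232) in vehicle and 806, 844, 335 and 49.1 in baseline tumours (log2 fold change 5.01, SE 1.29, adjusted p = 0.00418). Its groups overlapped, since vehicle tumour 402 at 8610 lay above entinostat tumour 423 at 7770. Col12a1, found in tension-bearing tissue, was 50630, 67890, 62000, 60570 and 39470 in entinostat, 221 to 13440 (median 1972) in vehicle and 6446, 5189, 3588 and 538 in baseline tumours (log2 fold change 4.90, SE 0.80, adjusted p = 0.000132) and did not overlap. Col16a1 had a log2 fold change of 2.46 and Col22a1, known at the muscle and tendon junction, 3.67. Col22a1 was low throughout, with 15 to 79.4 in entinostat and 0 to 11.6 in vehicle tumours, and outside the entinostat group only tumour 402 reached 10, so it entered the test through the group where it is high. The uncalled members were Col9a2 (0.94), Col9a3 (0.65) and Col20a1 (1.05), and the cartilage chain Col9a1 and Col19a1 were below the filter.

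Of the 5 basement membrane chains tested, 2 were called higher and 1 lower, a count near the shares over all genes (29.9% and 26.2%) that sets the class apart in neither direction. Col4a1 and Col4a2, the ubiquitous pair of type IV collagen found around vessels and most cell layers, rose, and Col4a5, a chain of epithelial basement membranes, fell. Col4a1 was 23890, 17120, 21350, 13020 and 21910 in entinostat, 801 to 32260 (median 2885) in vehicle and 6802, 4193, 3701 and 1143 in baseline tumours (log2 fold change 2.55, SE 0.73, adjusted p = 0.00796). Vehicle tumour 402 at 32260 exceeded every entinostat tumour, whereas the other 5 vehicle tumours lay at 4655 or less, under all of them. Without tumour 402 the log2 fold change was 3.21. Col4a2 was 13910, 9956, 14510, 10010 and 12170 in entinostat, 558 to 18980 (median 1877) in vehicle and 4401, 2794, 2578 and 867 in baseline tumours (log2 fold change 2.44, SE 0.68, adjusted p = 0.00649), with the same single overlap.

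Col4a1 and Col4a2 are arranged head to head on chromosome 8, where their annotations overlap by 85 bases at the starts. The labels name a stranded library kit, while the strand setting of the counting is not given in the sources used here, so reads in the overlap could count for either gene. Endothelial markers, 8 of 8 called higher, summed to 13040 to 21390 in entinostat and 915 to 22060 in vehicle tumours, with tumour 402 again the highest vehicle library. Pericyte and smooth muscle markers (7 of 8 higher, Notch3 lower) summed to 33600 to 71410 and 3044 to 33390. Their part in the rise of the Col4a1 pair was not tested.

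Col4a5 was 93.1, 295, 345, 119 and 114 in entinostat, 339 to 2972 (median 1034) in vehicle and 1318, 1504, 553 and 918 in baseline tumours. On the fitted scale it fell to 15.8% of the vehicle level (log2 fold change -2.66, SE 0.56, adjusted p = 0.000931). Entinostat tumour 418 at 345 lay just above vehicle tumour 402 at 339, the only overlap between the 2 groups. Col4a6, which starts 1274 bases from Col4a5 on the X chromosome and points the other way, was 0 to 72.6 in entinostat and 0.632 to 42.4 in vehicle tumours and was not called (log2 fold change -1.22, SE 1.21, adjusted p = 0.407). Col4a4, a chain known from the kidney filter, reached 31.5 at most in B6 and overlaps the untested Col4a3 by 114 bases (log2 fold change 1.13, SE 0.48, adjusted p = 0.0597).

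Col17a1 (chromosome 19, 47646341 to 47692042), the hemidesmosome collagen, showed the largest absolute change of any member. It was 17.4, 59, 158, 13.6 and 20.3 in entinostat tumours against 5980 to 42640 (median 20900) in vehicle and 32210, 20700, 35820 and 21240 in baseline tumours. The highest entinostat value, 158 in tumour 418, was far below the lowest vehicle value, 5980 in tumour 402. Col17a1 was 529-fold lower (log2 fold change -9.05, SE 0.62, adjusted p = 5.6e-08). The 12 epithelial markers had a median log2 fold change of -8.70 in the same comparison. Of the other transmembrane collagens, Col23a1 (1.80) and Col25a1 (3.74) were called higher and Col13a1 (0.29) was not. Col23a1 passed narrowly (adjusted p = 0.0433) and lost its call in 17 of 24 alternatives. Among these were quantile scaling, cyclic loess scaling and each fit without 1 of the 5 entinostat tumours. Col25a1 reached at most 32.8. Only 4 entinostat tumours and no other B6 tumour reached 10 for Col25a1, so it entered the test through the group where it is high.

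Other members at the border of epithelium and stroma were not called. Col7a1, the anchoring fibril chain, was 3472, 2757, 3316, 4704 and 1925 in entinostat, 530 to 3351 (median 2595) in vehicle and 7150, 2675, 2703 and 2495 in baseline tumours (log2 fold change 0.85, SE 0.48, adjusted p = 0.149, 95% confidence interval -0.18 to 1.88). Its 2 low vehicle libraries were the same tumours 402 and 405, at 530 and 722, and the other 4 lay at 2142 or more. Col18a1, the basement membrane collagen from which endostatin is cut, was 7592, 5256, 7181, 6195 and 4977 in entinostat, 2091 to 8466 (median 4851) in vehicle and 5821, 4298, 6253 and 2319 in baseline tumours (log2 fold change 0.55, SE 0.34, adjusted p = 0.176, interval -0.17 to 1.27). Its relative Col15a1, found around vessels and muscle fibres, was called higher, with 3660, 3145, 4243, 4523 and 5817 in entinostat, 126 to 4535 (median 863) in vehicle and 1257, 894, 664 and 238 in baseline tumours (log2 fold change 2.40, SE 0.67, adjusted p = 0.00707). Tumour 402, at 4535, lay within the entinostat range of Col15a1.

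Both tested short-chain network genes were called higher, beside 29.9% of all genes, Col8a1 less stably. Col8a2, known from the eye's inner corneal membrane and from vessel walls, was 1112, 1956, 2451, 1437 and 1470 in entinostat, 7.49 to 2906 (median 107) in vehicle and 239, 256, 139 and 33 in baseline tumours (log2 fold change 3.73, SE 1.03, adjusted p = 0.00624). Vehicle tumour 402 at 2906 lay above every entinostat tumour, and the other 5 vehicle tumours lay at 160 or less. Its partner Col8a1 changed by 2.56 on the log2 scale (adjusted p = 0.0257) and lost its call without entinostat tumour 413 and without the library richest in skeletal muscle markers of each group. Col10a1, the hypertrophic cartilage chain, was not tested, at 9.25 or less in B6. The last 2 members, Col26a1 (-1.43) and Col28a1 (1.49), were not called.

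**Figure D2:**
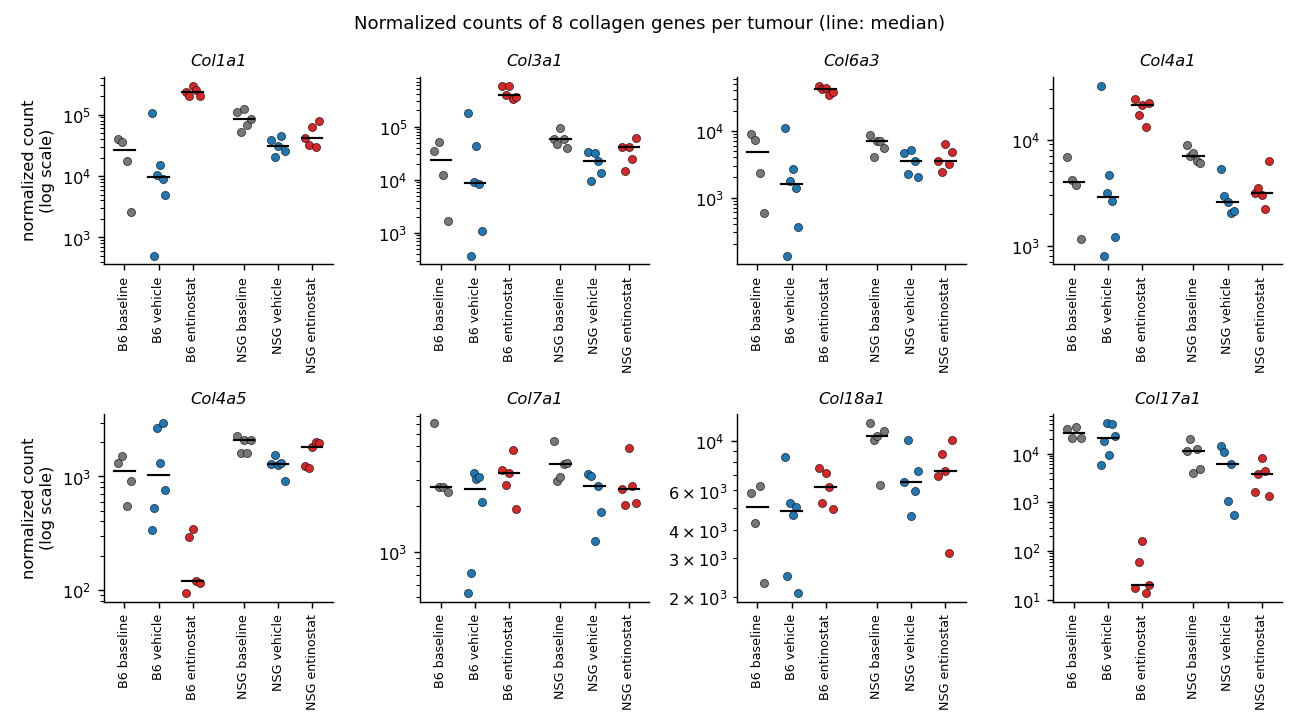
Normalized counts (y axes, log scale) of 8 collagen genes in each tumour of the 6 groups on the x axis; points are tumours and lines are medians. In B6 mice the entinostat tumours are high for Col1a1, Col3a1 and Col6a3, low for Col4a5 and lowest for Col17a1, at 13.6 to 158, while Col7a1 and Col18a1 overlap between groups.

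Against baseline tumours, B6 entinostat tumours gave a similar picture by class, and because both contrasts use the same entinostat tumours the values are only set side by side. Here 28 of 39 tested members were called higher and 2 lower, beside 29.1% and 25.3% of all genes tested. The 2 lower were again Col17a1 (-9.56) and Col4a5 (-2.58). Col1a1 had a log2 fold change of 3.88 over baseline and 4.79 over vehicle, and Col3a1 of 4.98 and 5.79. Col9a2 was called over baseline (4.08) and not over vehicle, from baseline values of 2.50 or less, and it too reached the filter only with the entinostat tumours counted. The count of higher members was 20 without baseline tumour 426, and the 8 calls lost included Col4a1, Col4a2, Col6a2 and Col8a2. Among the 28, Col8a1 lost its call in 14 of 24 alternatives, including quantile scaling and the fits without any single entinostat tumour. Col4a4, which was not called over vehicle, lost its call in 8 of 24 and was not tested with a filter of 50.

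No member was called between vehicle and baseline tumours of B6 mice. None of 39 tested was higher or lower, and 0% of all 17053 genes were called higher and 0% lower (limma; 1 member and 749 genes had an unadjusted p under 0.05). The 1 member was Col9a2, at 2.73 to 56.1 in vehicle and 0 to 2.5 in baseline tumours. Its limma test gave an adjusted p = 0.9997. The spread within each group was wide: Col1a1 ran from 2598 to 40110 at baseline and from 504 to 106400 with vehicle. The log2 difference of Col1a1 was -0.91 with a 95% confidence interval of -3.20 to 1.38, so a change of several-fold either way lay within it.

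No member was called between entinostat and vehicle tumours in NSG mice. Of 44 members 36 were tested, and 0% of 17752 genes were called higher and 0% lower (limma; 3 members and 1287 genes had an unadjusted p under 0.05). The median log2 fold change was 0.36 over the members and -0.03 over all genes. The 3 members were Col13a1 (1.17), Col5a2 (0.75) and Col27a1 (0.55), with adjusted p from 0.664 to 0.685. The 8 members not tested were the 5 named for B6 with Col9a2, Col22a1 and Col25a1.

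The type I and III chains overlapped between NSG entinostat and vehicle tumours. Col1a1 was 41480, 32570, 63350, 29160 and 77400 with entinostat, 38120, 20230, 31070, 44160 and 25200 with vehicle and 111300, 51820, 124800, 66980 and 86010 at baseline. Tumours NSG_Entinostat_315 and NSG_Entinostat_327 lay above every vehicle tumour for Col1a1, and the other 3 within the vehicle range. Its log2 fold change over vehicle was 0.57 (SE 0.31, 95% confidence interval -0.08 to 1.23). Col1a2 was 27840, 19900, 38240, 23150 and 54140 with entinostat, 25050, 12950, 21320, 23880 and 16220 with vehicle and 85860, 32840, 93370, 47290 and 58320 at baseline, with a log2 fold change over vehicle of 0.66 (SE 0.31). Tumours NSG_Entinostat_312 and NSG_Entinostat_319 were within the vehicle range of Col1a2. Col3a1 was 41630, 14730, 40490, 24040 and 60490 with entinostat, 33000, 9516, 31720, 22890 and 13110 with vehicle and 58450, 45990, 93750, 58350 and 39510 at baseline (log2 fold change 0.72, interval -0.13 to 1.56). Its vehicle range, 9516 to 33000, held 2 of the 5 entinostat tumours. The upper ends of the Col1a1 and Col3a1 intervals, 1.23 and 1.56, lie below the lower ends in B6 mice, 2.65 and 3.01. The difference between hosts is tested directly further on.

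Neither fibril-starting type V chain was called between these groups, though Col5a2 lay higher with entinostat in most tumours. Col5a1 was 5861, 5885, 9276, 4463 and 10280 with entinostat and 6808, 3396, 5395, 6887 and 4431 with vehicle (log2 fold change 0.39). Col5a2 was 7777, 6230, 11220, 7024 and 10840 with entinostat and 6618, 3032, 6334, 5695 and 4289 with vehicle (log2 fold change 0.75, adjusted p = 0.682). Tumour NSG_Entinostat_312 lay within the vehicle range of Col5a2 and the other 4 above its highest value, 6618.

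The type VI chains overlapped, and each interval of the log2 fold change included 0. Col6a1 was 9112, 4555, 10250, 6823 and 11040 with entinostat and 6345, 4025, 6896, 6458 and 6831 with vehicle (log2 fold change 0.41). Col6a2 was 5742, 3172, 6517, 3739 and 8496 with entinostat and 4097, 2529, 3834, 4893 and 4039 with vehicle (0.45). Col6a3 was 3532, 2390, 6381, 3194 and 4765 with entinostat and 4614, 2220, 5064, 3561 and 2034 with vehicle (0.23). In all 3 core chains the lowest entinostat tumour was NSG_Entinostat_312. Col6a6 was 29.2, 26.6, 31.7, 20.6 and 110 with entinostat and 41.2, 6.92, 36.4, 13.8 and 28.8 with vehicle, and NSG_Entinostat_327 was far above the rest. The fibril-associated Col12a1 was 12230, 8640, 19390, 15290 and 12670 with entinostat and 11260, 5093, 12570, 11050 and 9732 with vehicle. Col14a1 was 980, 260, 605, 523 and 2151 with entinostat and 947, 252, 871, 465 and 535 with vehicle. Both overlapped between the groups.

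The basement membrane and epithelial members of NSG tumours overlapped as well. Col4a1 was 3101, 3512, 3000, 2219 and 6279 with entinostat and 5229, 2902, 2595, 2008 and 2106 with vehicle. Col4a2 was 2089, 2618, 2148, 1636 and 4269 with entinostat and 3507, 2556, 1517, 1600 and 1626 with vehicle. In both chains NSG_Entinostat_327 was the highest tumour and NSG_Non-Treatment_302 the next. Col4a5 was 1237, 1192, 1814, 2030 and 1988 with entinostat and 1290, 1541, 1251, 1318 and 905 with vehicle (log2 fold change 0.37, interval -0.02 to 0.77). Col17a1 was 1653, 3818, 8200, 4365 and 1337 with entinostat and 14130, 10900, 1084, 6155 and 552 with vehicle (log2 fold change -0.18, interval -1.93 to 1.57). The vehicle group spanned the whole entinostat range of Col17a1. Col7a1 was 2610, 2033, 4846, 2743 and 2103 with entinostat and 3264, 3154, 1173, 2742 and 1828 with vehicle (log2 fold change 0.26, interval -0.35 to 0.87). Col18a1 was 6959, 8721, 7350, 3143 and 10090 with entinostat and 6568, 10120, 4612, 5938 and 7315 with vehicle (log2 fold change 0.02, interval -0.58 to 0.62). These 2 genes were the ones of the epithelial border that were not called in B6 mice either. Col15a1 (-0.07) and Col8a2 (-0.38) had intervals that included 0.

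**Figure D3:**
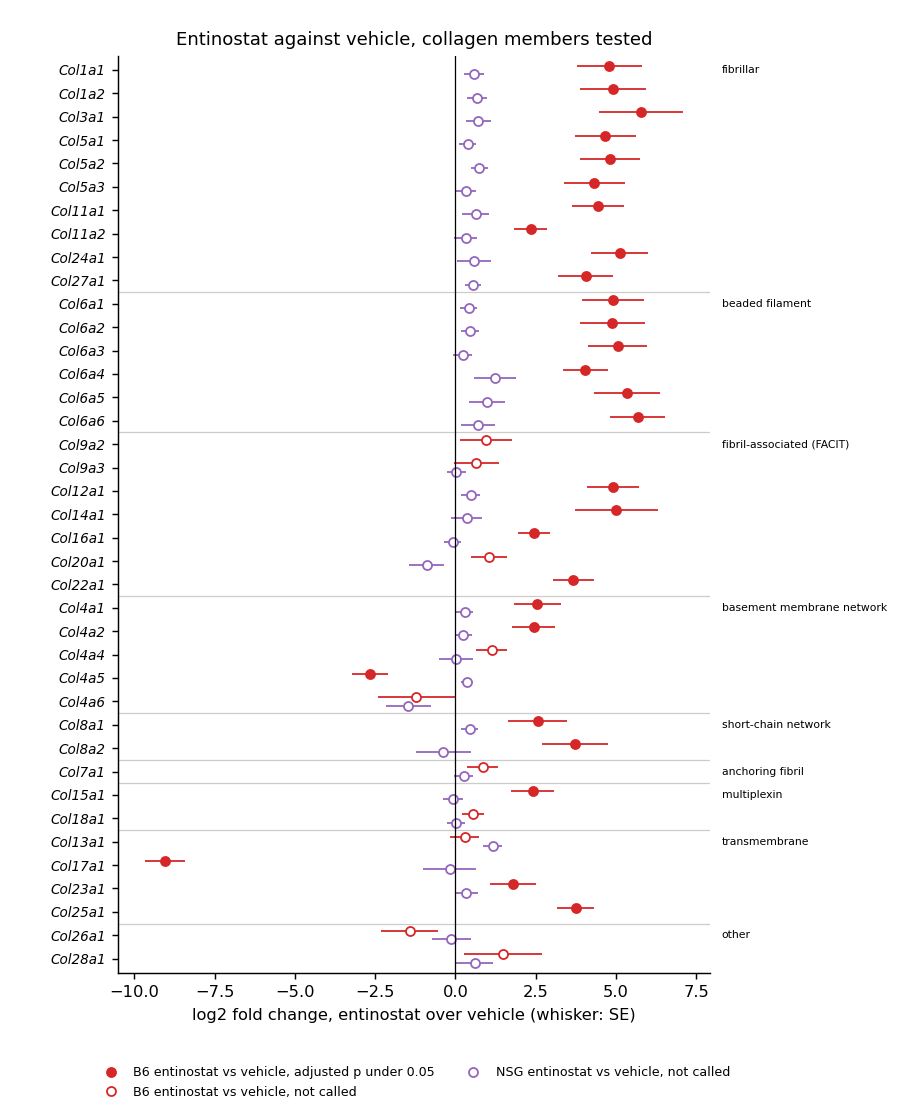
Log2 fold change of entinostat over vehicle (x axis, whiskers are SEs) for each tested collagen gene (y axis, by class) in B6 and NSG mice; filled points have an adjusted p under 0.05 and open points do not. In B6 mice 27 genes are filled to the right of 0 and 2, Col4a5 and Col17a1, to the left, and no NSG point is filled.

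Most members responded differently in the 2 hosts when the difference itself was tested. The contrast was the entinostat over vehicle log2 fold change in B6 minus that in NSG. Of 36 members tested, 23 were called higher in B6 and 2 lower, beside 23.8% and 19.7% of 16335 genes. The median difference was 2.69 over the members and 0.03 over all genes. All 10 tested fibrillar and all 6 beaded-filament members were among the 23. The 5 members with the smallest p were Col17a1 (-8.86, SE 1.07, adjusted p = 3.28e-07), Col4a5 (-3.03, adjusted p = 0.000314), Col12a1 (4.43), Col6a6 (4.96) and Col6a3 (4.83). Col17a1 and Col4a5 were the 2 whose response was lower in B6. Col6a6 reached the B6 filter only with the entinostat tumours counted, so its difference follows in part from the filter.

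For Col1a1 the difference was 4.22 (SE 1.12, adjusted p = 0.00362), for Col1a2 4.24 (adjusted p = 0.00407) and for Col3a1 5.07 (adjusted p = 0.00634). The Col4a1 (2.26, adjusted p = 0.0288) and Col4a2 (2.20, adjusted p = 0.0228) differences were weaker calls. With quantile scaling Col1a1 had an adjusted p of 0.0562, Col1a2 0.0577, Col4a1 0.0794 and Col4a2 0.0696, in the same direction, and 19 members were called higher. Without the library richest in skeletal muscle markers of each group 18 were called higher, and Col4a1, Col4a2, Col6a4, Col8a2 and Col14a1 lost their calls. Col11a2 lost its call with cyclic loess scaling, and Col11a2, Col6a4, Col6a5 and Col6a6 were too low to be tested with a filter of 50. Col7a1 (-0.63 to 1.81) and Col18a1 (-0.41 to 1.48) had 95% confidence intervals of the difference that included 0.

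NSG vehicle tumours held less RNA of many collagens than NSG baseline tumours, though the calls depended on single libraries. Of 36 members 14 were called lower in vehicle than in baseline tumours and 0 higher, beside 5.5% of all genes called lower and 7.53% higher. The median log2 fold change was -0.93 over the members and -0.04 over all genes. The called members were 6 fibrillar (Col1a1, Col1a2, Col3a1, Col5a1, Col5a2 and Col27a1), 3 of type IV (Col4a1, Col4a2 and Col4a5), 3 of type VI (Col6a1, Col6a2 and Col6a6), Col8a1 and Col13a1. No member was called without NSG_Baseline_303, NSG_Baseline_305 or NSG_Non-Treatment_326, 5 without NSG_Non-Treatment_323 and 9 without NSG_Baseline_320. Without the library richest in skeletal muscle markers in each group, 0 were called and the median over the members was -0.85. NSG_Baseline_305 and NSG_Non-Treatment_326 were among those libraries, at summed muscle values of 92240 and 75040.

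Per tumour, the type I chains of NSG vehicle mice lay under all baseline tumours. The highest vehicle value of Col1a1 was 44160 and the lowest baseline value 51820, so the change was -1.46 on the log2 scale (SE 0.31, adjusted p = 0.0183). Col1a2 fell by 1.62 (adjusted p = 0.0176) on the same scale, with baseline tumours at 32840 or more and vehicle tumours at 25050 or less. Col5a2 was 19840, 8578, 15920, 9710 and 10420 at baseline and fell by 1.29 (adjusted p = 0.0181) without overlap. Col4a1 was 8848, 6931, 7426, 6215 and 5956 at baseline and fell by 1.33 (adjusted p = 0.0181), and NSG_Non-Treatment_302 at 5229 was the nearest to baseline. Col6a2 was 12240, 5615, 13720, 8392 and 10400 at baseline and fell by 1.34 (adjusted p = 0.0183). For each of these 5 genes the vehicle and baseline ranges were apart. They were named for the smallest p among members in this comparison, so that separation follows in part from the choice. With ranges apart, leaving out 1 library cannot turn the sign of the change. None of the 5 kept its call without NSG_Baseline_303, NSG_Baseline_305 or NSG_Non-Treatment_326.

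Among the other members called lower with vehicle, Col5a1 was 13970, 6749, 13380, 8869 and 9712 at baseline. Col4a2 was 5853, 4974, 4387, 3483 and 3893 and Col4a5 2281, 1601, 2119, 1608 and 2106 at baseline. Col6a1 was 14950, 6899, 16690, 10650 and 13160 at baseline, and its partner Col6a3, at 8769, 3981, 7023, 7013 and 5512, missed the threshold (adjusted p = 0.0526). The epithelial Col17a1 was 11370, 19530, 4056, 12610 and 4876 at baseline and was not called. Neither was Col7a1, at 5446, 2961, 3145, 3809 and 3900, or Col18a1, at 12000, 10040, 10550, 6361 and 11090. Baseline ranges were 7573 to 19320 for Col12a1, 847 to 2513 for Col14a1, 1552 to 2295 for Col15a1, 112 to 454 for Col8a2 and 44.4 to 146 for Col6a6. Among marker lists, 5 of 8 endothelial, 3 of 8 pericyte, 3 of 8 macrophage and 1 of 10 fibroblast markers were called lower in the same comparison. Of all genes 5.5% were called lower and 7.53% higher, and none was called without the muscle-richest libraries. Endothelial sums were 3925 to 5146 at baseline and 2354 to 4036 with vehicle, and fibroblast sums 22550 to 29950 and 9995 to 23910. The part of these lists in the result was not tested.

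NSG entinostat tumours, which share these baseline tumours, had no member called against them. Among 36 members 0 were called in either direction, beside 0.208% of all genes higher and 0.197% lower (limma; 16 members and 4501 of 17752 genes had an unadjusted p under 0.05). Col1a1 had a log2 fold change of -0.88 over baseline with entinostat and -1.46 with vehicle, Col4a1 of -1.04 and -1.33, and Col6a2 of -0.89 and -1.34. Col4a1 came nearest to a call with entinostat (adjusted p = 0.0701).

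**Figure D4:**
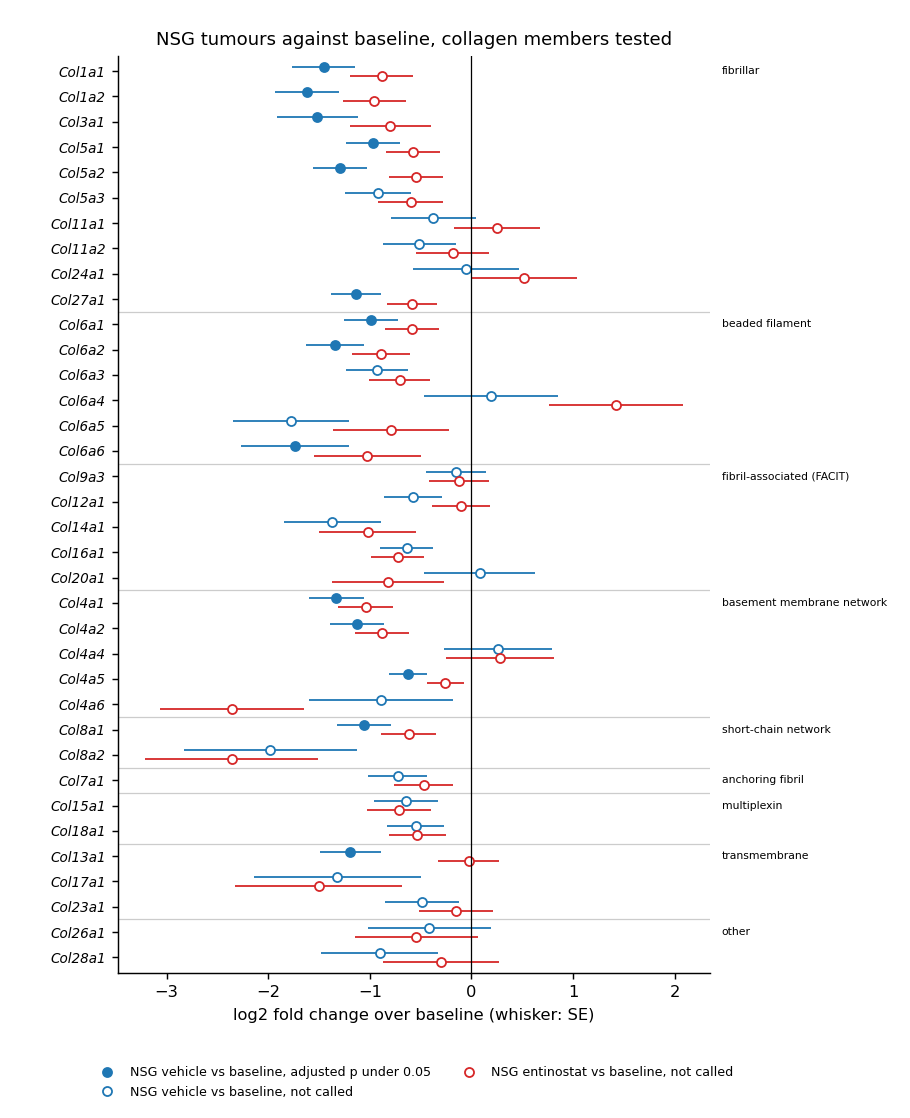
Log2 fold change over baseline in NSG mice (x axis, whiskers are SEs) for each tested collagen gene (y axis, by class), with vehicle and with entinostat tumours; filled points have an adjusted p under 0.05. With vehicle 14 genes are filled, all left of 0, and with entinostat none is; both contrasts share the 5 baseline tumours.

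Ratios between chains that share a trimer or fibril were compared between entinostat and vehicle tumours. The log2 ratio of 2 chains within a library, each value plus 1, hardly depends on library scaling, and 9 pairs in 2 hosts gave 18 tests of entinostat against vehicle (exact two-sided permutation of tumour labels; smallest possible p 0.00433 in B6 and 0.00794 in NSG). None reached an adjusted p under 0.05 (exact permutation; 2 had an unadjusted p under 0.05), and every pair's ranges overlapped. With 18 tests, a single ratio at the smallest p would have an adjusted p of 0.0779 in B6 and 0.143 in NSG, so 1 changed pair alone could not have been called, and the lack of calls does not show that ratios were equal. For Col1a1 over Col1a2 the mean log2 ratio in B6 was -0.40 ± 0.10 (SD, n = 5) with entinostat and -0.29 ± 0.10 (SD, n = 6) with vehicle, although Col1a1 itself spanned 504 to 296200 over those tumours. Over the 3 groups of each host it was below 0 in all 15 B6 tumours (-0.51 to -0.10) and above 0 in all 15 NSG tumours (0.33 to 0.89), a difference that was not tested. Col6a3 over Col6a1 also lay apart by host, at -0.24 to 0.56 in B6 and -1.75 to -0.45 in NSG tumours. That split was not tested either. For Col6a1 over Col6a2 the B6 means were 0.37 ± 0.14 and 0.34 ± 0.22, and for Col4a1 over Col4a2 0.67 ± 0.20 and 0.56 ± 0.17. Col3a1 over Col1a1 varied more, at 0.89 ± 0.35 with entinostat and -0.10 ± 1.26 with vehicle (exact permutation p = 0.104, adjusted 0.312).

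In B6 mice Col8a1 over Col8a2 was 2.30 ± 0.42 with entinostat and 3.47 ± 0.88 with vehicle, a difference of -1.17 (exact permutation p = 0.0217, adjusted 0.312). The overlap came from vehicle tumour 402 alone, at 1.75: the other 5 vehicle tumours (3.56 or more) and the 4 baseline tumours (2.98 to 3.86) lay above every entinostat tumour (1.61 to 2.68). Without tumour 402 the difference was -1.52 (exact permutation, adjusted p = 0.143). In NSG mice Col5a1 over Col5a2 was -0.30 ± 0.24 and 0.06 ± 0.19, a difference of -0.36 (exact permutation p = 0.0397, adjusted 0.312). Col4a5 over Col4a6 differed by -1.44 in B6 and 1.84 in NSG, with adjusted exact permutation p of 0.490 and 0.312. Col4a6 was 0 in B6 entinostat tumours 411 and 421 and in NSG_Entinostat_319, so the size of this ratio depends on the pseudocount. The sum of Col1a1, Col1a2 and Col3a1 as a percent of the family was 72.5 to 76.6% in B6 entinostat tumours, 5.56 to 69.4% in B6 vehicle and 17.5 to 61.9% in B6 baseline tumours. In NSG mice it was 57.6 to 70.5% at baseline, 42.1 to 58.4% with vehicle and 53.1 to 66.6% with entinostat. These percentages are not corrected for transcript length and are compared only between libraries.

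**Figure D5:**
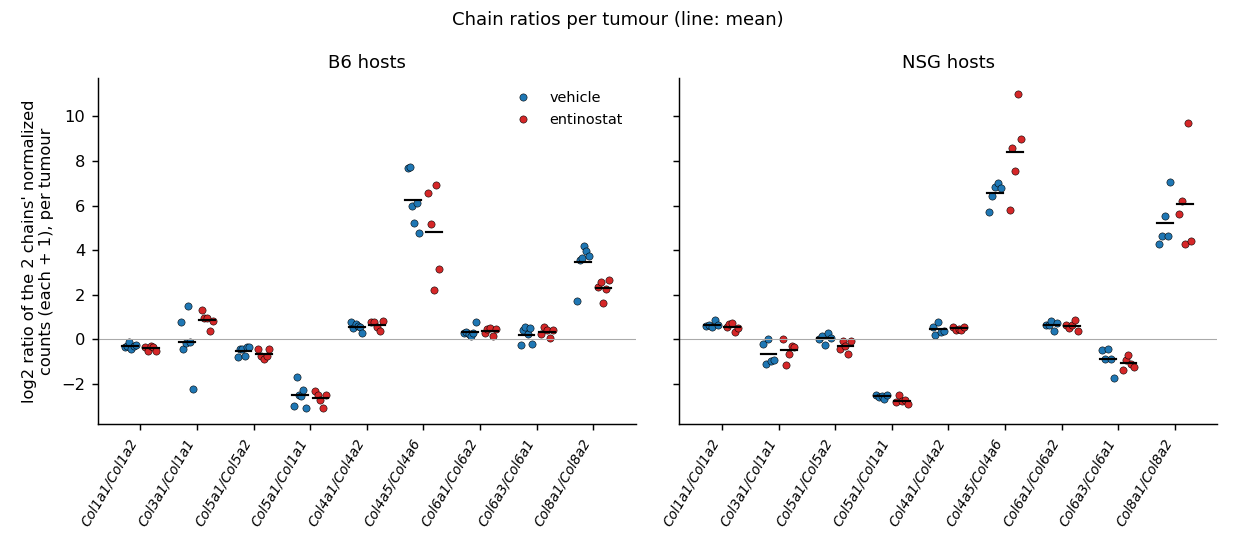
Log2 ratio of 2 collagen chains' normalized counts, each plus 1 (y axis), for 9 pairs (x axis) in vehicle and entinostat tumours of B6 and NSG mice; points are tumours and lines are means. Within a host Col1a1/Col1a2 lies close together over tumours, below 0 in B6 and above 0 in NSG mice, and Col6a1/Col6a2 lies close together in both, while Col4a5/Col4a6 and Col8a1/Col8a2 are spread out. In NSG_Entinostat_319 Col4a6 was 0 and Col8a2 3.18, so there these 2 ratios depend on the added 1.

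Most genes that fold and modify procollagen were higher in B6 entinostat tumours as well. Of 20 genes 15 were called higher than with vehicle, 1 lower and 4 not, beside 29.9% of all genes higher and 26.2% lower, and the median change was 1.61 on the log2 scale. Serpinh1, the collagen chaperone HSP47, was 28060 to 42150 in entinostat and 270 to 16790 in vehicle tumours (log2 fold change 4.0, SE 0.80, adjusted p = 0.000698). Creb3l1, a transcription factor of collagen secretion (log2 fold change 3.37, SE 0.51, adjusted p = 6.32e-05), Crtap, a prolyl 3-hydroxylase partner (2.24), and the lysyl hydroxylase Plod1 (2.68) were the others with the smallest p. The lower gene was P3h2, a prolyl 3-hydroxylase of basement membrane collagen (log2 fold change -2.29, SE 0.52, adjusted p = 0.00177), which is named because it was the only one. In NSG mice 0 of 20 were called, beside 0% of all genes in either direction. P4ha2 (-0.32) and P4ha3 (0.55), both prolyl 4-hydroxylase subunits, had the smallest p there.

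Procollagen processing and cross-linking genes followed, with 12 of 13 tested called higher in B6 (median 3.73), beside 29.9% of all genes, and Tll2 below the filter. The exception was Loxl4 (0.01). Adamts14, a procollagen N-proteinase, was 454 to 808 in entinostat and 21.5 to 118 in vehicle tumours (log2 fold change 3.90, SE 0.44, adjusted p = 4.64e-06). Fmod, the fibril-binding proteoglycan fibromodulin (4.95), the N-proteinase Adamts3 (3.54, which reached the filter only with the entinostat tumours counted) and the lysyl oxidase relative Loxl2 (4.07) were also among the smallest p. In NSG mice 0 of 13 were called, beside 0% of all genes, and Adamts14 (0.73) and Lox (0.53) came first.

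Genes of collagen breakdown and uptake were higher too, at 9 of 10 tested of 12 in B6 (median 3.71), beside 29.9% of all genes; Mmp16, 1 of the 9, reached the filter only with the entinostat tumours counted. Mmp13, a collagenase, was 57740 to 169400 in entinostat and 880 to 3954 in vehicle tumours (log2 fold change 5.66, SE 0.49, adjusted p = 3.79e-07). Mmp8, the neutrophil collagenase, was 1297 to 3717 in entinostat and 4.04 to 57.6 in vehicle tumours (log2 fold change 6.86, SE 0.74, adjusted p = 3.4e-06). Mmp14, a membrane collagenase, rose by 2.45 on the log2 scale and Ctsk, the osteoclast collagen protease cathepsin K, by 6.34. Mmp15, another membrane protease, was the 1 called lower (log2 fold change -2.63, SE 0.51, adjusted p = 0.000544). In NSG mice 0 of 10 were called, beside 0% of all genes, and Mrc2, a collagen uptake receptor (0.61), and Mmp14 (0.51) came first.

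The collagen receptors moved in both directions. Of 8 tested of 9 in B6, 5 were higher (Lair1, Ddr2, Itga1, Itga10 and Itga11) and 1 was lower, beside 29.9% and 26.2% of all genes. Ddr1, a collagen receptor tyrosine kinase known in epithelium, was lower, at 320 to 902 in entinostat and 2387 to 7387 in vehicle tumours (log2 fold change -3.03, SE 0.33, adjusted p = 4.01e-06). Ddr2, its relative in mesenchymal cells, was 2464 to 3164 in entinostat and 32.4 to 955 in vehicle tumours (log2 fold change 3.88, SE 0.66, adjusted p = 0.000185). Lair1, an inhibitory collagen receptor of leukocytes, was 2356 to 3569 in entinostat and 91.3 to 493 in vehicle tumours (log2 fold change 3.98, SE 0.37, adjusted p = 7.15e-07), and Itga11, the fibroblast collagen integrin, changed by 5.86. In NSG mice 0 of 8 were called, beside 0% of all genes, and Ddr2 (0.96) and Itga2 (0.70) came first. For NSG vehicle against baseline, 2 of 20 folding genes, 4 of 13 processing genes, 1 of 10 breakdown genes and 2 of 8 receptors were called lower, and 1 breakdown gene, Mmp8, was called higher, beside 5.5% of all genes lower and 7.53% higher. No gene at all was called in that comparison without NSG_Baseline_303 or without the muscle-richest libraries.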

How the data were processed

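RNA was measured in 30 tumours of the 55 samples; the T cell receptor and exome samples were not used. Libraries were made with a stranded mRNA kit, per the labels' protocols. The values are gene counts divided by a size factor per library, a signal with no upper limit deposited by the authors in 1 table for each host; STAR, DESeq2 and build mm10 are named in the submitters' processing notes. The counting program, its strand setting, its annotation and the versions are not given in the sources used here. Library sums were 21230000 to 33350000 in B6 and 28240000 to 37250000 in NSG. Whole reads could not be recovered from the values. The spacing of the lowest values gives a rough estimate of 11010000 to 51600000 counted reads per library, so values of a few units have wide counting error.

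Groups came from the treatment and strain labels, and tables were joined by the tumour name in each column. Log2(value + 1) was fitted with limma 3.58.1 (R 4.3.3; trend and robust eBayes), 1 fit per host over its 3 groups, genes of at least 10 in 4 (B6) or 5 (NSG) libraries, and Benjamini-Hochberg adjustment over all genes tested. The host difference was the interaction over both tables. Chain ratios used an exact permutation test (scipy 1.17.1). Other steps used Python 3.11.15, numpy 2.4.6, pandas 2.3.3 and matplotlib 3.10.9. The scripts were tested on simulated data. Other pseudocounts, filters, scalings, fits and left-out libraries were tried as alternatives. Promoter windows came from the RefSeq table for GRCm38.p6, where 35 of 44 members matched.

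Per-tumour values are given for 13 members in every case (types I, III, IV alpha 1 and 2, V, VI core chains, VII, XVII and XVIII), for the largest called change with a group mean of at least 50 in each class and host, for the 5 smallest p of the host difference and for up to 5 members called between vehicle and baseline. From each pathway list the 4 smallest p in B6 and the 2 smallest in NSG were named, and others were named only to account for a count. The members and lists were chosen with earlier results of these data known.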

Additional observations from a re-analysis of the deposited data

Results flagged for a closer look

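Single tumours stood far from the rest of their group for 21 of the 120 groups checked (gap to the nearest tumour over the group's range, Dixon's 95% limit), where chance gives about 1 in 20 and genes of 1 library are not independent. In B6 vehicle tumour 402 the family share was 2.86% of the library. The same tumour was the high outlier for Col1a1 (106400 normalized counts), Col1a2 (134200), Col3a1 (181100), Col5a1 (13490) and Col5a2 (23030). It was also high for Col4a1 (32260), Col4a2 (18980), Col6a1 (13100), Col6a2 (10710) and Col6a3 (11120), and for Col8a2 (2906), Col12a1 (13440), Col14a1 (8610) and Col15a1 (4535). Its fibroblast, endothelial and macrophage marker sums were the highest among B6 vehicle tumours as well.

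Outside that tumour, Col7a1 was high in B6 baseline tumour 415 (7150) and in tumour NSG_Entinostat_315 (4846). Col4a1 was high in tumour NSG_Non-Treatment_302 (5229) and Col6a1 low in tumour NSG_Non-Treatment_308 (4025). Col6a6 was high in tumour NSG_Entinostat_327 (110) and Col8a2 in tumour NSG_Baseline_303 (454).

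For 17 described members the entinostat response differed between hosts by the interaction test (limma, adjusted p under 0.05). Some were described because of this test or their B6 change, so the count follows in part from that choice. Over all 16335 genes tested 23.8% were called higher in B6 and 19.7% lower. The B6 response exceeded the NSG response, on the log2 scale, by 4.22 for Col1a1, 4.24 for Col1a2, 5.07 for Col3a1, 4.28 for Col5a1 and 4.07 for Col5a2. For type VI the differences were 4.51 for Col6a1, 4.44 for Col6a2, 4.83 for Col6a3 and 4.96 for Col6a6. The value of Col6a6 has the limit of the filter given above. Col4a1 differed by 2.26, Col4a2 by 2.20, Col8a2 by 4.11, Col12a1 by 4.43, Col14a1 by 4.66 and Col15a1 by 2.48. Col4a5 (-3.03) and Col17a1 (-8.86) differed the other way.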

How the results depend on the processing

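No paired analysis was possible because no tumour was sampled in more than one of the groups compared. No called result changed its direction under any alternative. For B6 entinostat against vehicle, 25 to 27 members were called higher and 2 lower in every leave-one-out fit. Quantile scaling moved the median of all genes by -0.15 in that comparison and left 26 members higher. It also turned the balance over all genes, from 5093 higher and 4460 lower to 4548 and 5305 (4643 and 5033 with cyclic loess), and for the host difference from 3894 and 3210 to 3475 and 3872. In B6 entinostat against baseline, Col1a2 missed the threshold with quantile scaling (2.98, adjusted p 0.0558).

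The NSG comparisons with baseline were the unstable ones, and the causes were not tested. For vehicle against baseline, 14 members were called lower, with 0 to 19 in leave-one-out fits and 0 without the muscle-richest libraries. Of all genes, 1336 were higher and 976 lower there, then 795 and 614 with no filter, 1792 and 1596 with only the groups compared, and 0 and 0 without the muscle-richest libraries. In leave-one-out fits the ranges were 0 to 2029 higher and 0 to 1678 lower. The upper ends came without NSG_Entinostat_319, which enters only through the shared spread. For entinostat against baseline, 0 members were called lower, then 1 with quantile scaling, 1 with only the groups compared, and 0 to 4 in leave-one-out fits (4 without NSG_Entinostat_327). Of all genes, 37 were higher and 35 lower there, then 73 and 88 with pseudocount 5, 192 and 124 with quantile scaling, 298 and 293 with only the groups compared, 19 higher with eBayes without trend and robust settings, and 0 and 0 without the muscle-richest libraries. In leave-one-out fits the ranges were 0 to 528 higher and 0 to 410 lower.

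In B6 vehicle against baseline, 1 gene was called with quantile scaling and 0 to 2 in leave-one-out fits, and in NSG entinostat against vehicle 0 to 1. For the host difference, Col4a1 lost its call in 6 alternatives, Col4a2 in 2, and Col1a1, Col1a2, Col6a4, Col8a2, Col11a2 and Col14a1 in 1 each, and 18 members were higher without the muscle-richest libraries. Chain ratios could not show a lone change under any alternative, since 18 tests leave it an adjusted p above 0.05. Depth limits the low members: with a filter of 50, Col11a2, Col22a1 and Col25a1, of those called higher over vehicle in B6, were not tested, nor was Col6a6 in NSG mice.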
